A study of Homo sapiens with 44 samples.

Results

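The 30 genes described here are well-known targets and regulators of the p53 pathway, chosen by name. All 30 were found by symbol among the 25689 gene symbols of each of the RNA tables, from HEK293-GR and from A549 cells. By role they are 4 regulators of the pathway (MDM2, MDM4, PPM1D and CCNG1), 5 genes of cell cycle arrest and growth control (CDKN1A, GADD45A, BTG2, PLK2 and PLK3) and 9 genes linked to apoptosis (BBC3, BAX, PMAIP1, AEN, TP53I3, TRIAP1, PHLDA3, TP53INP1 and SPATA18). The others are 3 death receptors (FAS, TNFRSF10A and TNFRSF10B), 4 DNA repair genes (XPC, DDB2, POLH and RRM2B) and 5 genes of metabolism and other roles (SESN1, FDXR, GDF15, ZMAT3 and RPS27L).

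p53 is a transcription factor that is kept low by the ubiquitin ligase MDM2 and accumulates after DNA damage or other stress. It then switches on genes that halt the cell cycle, repair DNA or start apoptosis, among them MDM2, which closes a feedback loop.

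The series examined IRF2BP2, a transcriptional cofactor, in cells exposed to dexamethasone (dex), a synthetic glucocorticoid, or to the inflammatory cytokine tumour necrosis factor (TNF). HEK293-GR cells are an isogenic embryonic kidney line that constantly expresses the glucocorticoid receptor. The A549 cells come from a lung adenocarcinoma. As background, A549 cells have wild-type p53, while p53 is inhibited in HEK293 cells. The part of this difference in the results was not tested. In both lines a pool of small interfering RNAs against IRF2BP2 (siIRF2BP2) was set against a non-targeting pool (siNON), each at 20 nM for 72 h, with steroid-depleted medium. RNA was taken after 6 h of 100 nM dex or of ethanol vehicle in HEK293-GR cells, and of 10 ng/ml TNF, dex, both agents or vehicle in A549 cells. The HEK293-GR table held 12 libraries, 3 for each combination of siRNA and treatment. The A549 table held 1 column for each of 8 groups, pooled by the authors from 3 samples, so no replicate error of A549 can be given. IRF2BP2 was also mapped in HEK293-GR chromatin after 1 h of dex or vehicle, with 1 deposited peak list per condition from 2 samples each.

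HEK293-GR libraries held 18.2 to 28.5 M tags and the pooled A549 columns 35.8 to 56.9 M. IRF2BP2 mRNA averaged 10.4 ± 0.752 FPKM in siIRF2BP2 dex libraries and 19.98 ± 0.605 FPKM in siNON dex libraries, and 12.7 ± 0.960 FPKM in siIRF2BP2 vehicle libraries and 22.9 ± 2.41 FPKM in siNON vehicle libraries (SD, n = 3 each). In A549 its log2 fold change lay between -0.66 and -0.31 in the 4 knockdown comparisons in the authors' deposited table. All 4 of the genes known to answer dex directly that were examined rose after dex with either siRNA in both lines. Of the markers fixed for A549, AKR1B10 stood at 246 to 519 FPKM there, but the epithelial marker EPCAM at 0.545 to 1.14 FPKM, on a scale divided by genomic span. Of 6 genes fixed as HEK293 markers, 5 fell after dex with siIRF2BP2 and 4 with siNON in HEK293-GR, against 4.59% and 9.82% of genes. With siIRF2BP2 2 (WT1 and NEFL) fell under either treatment, against 6.75% of genes. Of 6 A549 markers, 4 to 5 were lower in the A549 knockdown comparisons in the authors' deposited table, against 17.2% to 20.0% of genes. Called higher there was 1 under vehicle, TNF and both agents, and 0 under dex, against 15.9% to 20.5% of genes. Of 6 markers of other cell types (blood, endothelial and connective tissue), 3 had enough A549 reads. In those comparisons 1 to 2 were higher (COL1A1, joined by CD14 except under TNF) and 0 lower in the authors' deposited table, against the same shares of genes. In A549 4 of the 6 HEK293 markers were lower after TNF with either siRNA in the authors' deposited table. The shares of genes lower were 19.6% with siIRF2BP2 and 9.83% with siNON. In HEK293-GR 1 of 4 tested markers of other cell types was higher and 2 lower with siIRF2BP2 under dex, against 22.4% and 17.3% of genes. Under vehicle 1 was lower, against 7.48% of genes. In siIRF2BP2 dex replicate 3, the deepest HEK293-GR library, genes above 1 read per base lay -0.32 (log2) from the other libraries of their group, and 0.24 in replicate 2, the shallowest. The part of these markers and of depth in the results was not tested. In bulk RNA, fewer cells of a type and less RNA per cell cannot be told apart. The labels do not say whether replicates were separate cultures, so p-values measure the spread between these libraries, which may be technical.

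IRF2BP2 peaks lay close to several members. Within 10 kb of the annotated start, the dex list of 1400 peaks had a peak at 3 of 30 members (10.0%), against 1.24% of 25653 genes, and the vehicle list of 1108 peaks at 4 of 30 (13.3%), against 1.10% of genes. Within 1 kb it was 3 members in either list, against 0.238% of genes for dex and 0.339% for vehicle. With 1 list per condition these shares are a description and were not tested. CDKN1A, which encodes the cell cycle inhibitor p21, had peaks centred -176 bases (dex, chr6:36646145-36646476, build hg19) and -133 bases (vehicle, chr6:36646183-36646525) from its start. PLK3, a stress-responsive kinase, had peaks at -334 bases (dex, chr1:45265536-45265867) and -357 bases (vehicle, chr1:45265508-45265850). MDM2 had peaks inside the gene, at 810 bases (dex, chr12:69202596-69202927) and 821 bases (vehicle, chr12:69202602-69202944). GADD45A, a stress sensor of growth arrest, had a peak at 1624 bases in the vehicle list (chr1:68152313-68152655) and none within 100 kb in the dex list. As background, known p53 elements lie in the first intron of MDM2 and the third intron of GADD45A, and whether these peaks cover them was not tested. AEN, a p53-induced nuclease, had a peak centred at -34.6 kb in both lists. Within 100 kb the dex list also had peaks for BTG2 (-41.4 kb), PMAIP1 (-55.7 kb) and SESN1 (71.0 kb), so that it reached 7 members (23.3%, against 10.1% of genes) and the vehicle list 5 (16.7%, against 2053 of the 25653 genes).

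**Figure D1:**
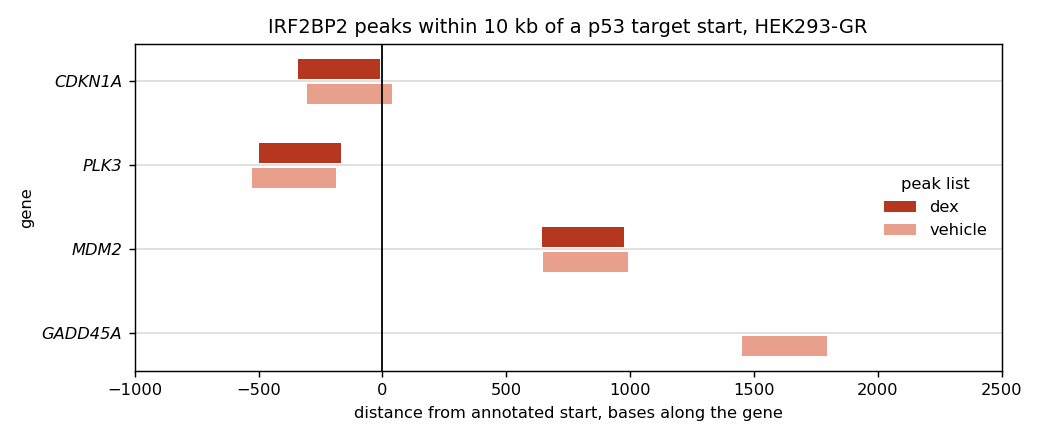
IRF2BP2 peaks within 10 kb of the annotated start of a member in HEK293-GR cells, by distance from the start in bases along the gene; each bar spans 1 peak of the dex list (dark) or the vehicle list (light). CDKN1A and PLK3 carry peaks just upstream of the start, MDM2 inside the gene at 810 and 821 bases, and GADD45A at 1624 bases in the vehicle list.

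RefSeq promoters (build GRCh38.p14, 250 bases before to 50 after the start) matched 24 of the 30 members by symbol. GADD45A, PHLDA3, RRM2B, TNFRSF10A, TNFRSF10B and TP53INP1 had no entry. The p53 consensus decamer, searched as its pattern of purines and pyrimidines, which reads alike on both strands, matched in 4 of the 24, against 6.63% of 35116 RefSeq promoters. The matches were in PLK2 at -132 (AGACTTGCTT), RPS27L at -59 (AGACAAGCCC), AEN at -34 and FDXR at -11, the last pair sharing the letters GGGCTTGCCC. GGGCGG on either strand matched in 20 of 24 (45% of all promoters), AGAACA on either strand in 1, XPC (14.8%), and TATAAA on either strand in 1, GDF15 (4049 of the 35116 promoters). The 250 bases upstream of 4 starts are given in lower case with the decamer in capitals: CDKN1A and PLK3 because peaks lie near their starts, AEN and FDXR because they hold the decamer. Peaks are in hg19 and promoters in GRCh38.p14, so they were not overlaid. The stretches are chr6:36678464-36678713, plus strand for CDKN1A, chr1:44800127-44800376, plus strand for PLK3, chr15:88621090-88621339, plus strand for AEN and chr17:74872995-74873244, minus strand for FDXR, each written 5′ to 3′ along the gene.
CDKN1A: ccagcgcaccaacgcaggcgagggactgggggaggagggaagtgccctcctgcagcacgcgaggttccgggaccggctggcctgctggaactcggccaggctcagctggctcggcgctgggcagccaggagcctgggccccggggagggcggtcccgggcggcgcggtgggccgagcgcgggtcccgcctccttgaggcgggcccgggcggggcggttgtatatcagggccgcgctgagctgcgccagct
PLK3: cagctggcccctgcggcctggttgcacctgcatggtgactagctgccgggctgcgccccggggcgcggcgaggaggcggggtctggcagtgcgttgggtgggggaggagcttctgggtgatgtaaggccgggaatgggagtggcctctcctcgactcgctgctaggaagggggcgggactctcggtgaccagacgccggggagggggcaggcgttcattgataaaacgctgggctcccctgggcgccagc
AEN: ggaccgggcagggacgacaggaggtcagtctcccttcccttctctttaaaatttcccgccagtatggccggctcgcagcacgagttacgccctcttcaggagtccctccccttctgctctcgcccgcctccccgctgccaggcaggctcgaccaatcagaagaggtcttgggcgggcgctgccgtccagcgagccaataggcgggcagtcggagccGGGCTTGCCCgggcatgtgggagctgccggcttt
FDXR: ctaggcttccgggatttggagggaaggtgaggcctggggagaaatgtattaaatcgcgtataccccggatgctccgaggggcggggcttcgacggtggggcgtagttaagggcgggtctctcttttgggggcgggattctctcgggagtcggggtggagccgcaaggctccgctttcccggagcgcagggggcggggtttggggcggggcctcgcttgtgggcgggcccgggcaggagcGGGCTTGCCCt

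In HEK293-GR cells the mean level over the 12 libraries ran from 46.0 FPKM for CDKN1A to 0.935 FPKM for GDF15, a stress-induced secreted factor, with the death receptor TNFRSF10A at 0 to 0.112 FPKM. CCNG1, a cyclin that is a p53 target, BAX, an effector of apoptosis, and AEN followed CDKN1A at 43.8, 38.9 and 36.5 FPKM. TNFRSF10A did not reach 10 reads in 3 libraries, so 29 of the 30 members were tested.

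CDKN1A rose more than any other member after dex in HEK293-GR cells. It measured 66.6, 69.96 and 54.4 FPKM in siIRF2BP2 dex libraries, against 29.8, 27.5 and 31.1 FPKM in siIRF2BP2 vehicle libraries. With the other siRNA it measured 66.6, 64.3 and 63.9 FPKM in siNON dex libraries, against 26.9, 26.4 and 24.1 FPKM in siNON vehicle libraries. The groups did not overlap with either siRNA. The lowest dex value came from siIRF2BP2 dex replicate 3, the deepest library, and CDKN1A is among the densest members. The log2 fold change was 1.10 ± 0.0912 with siIRF2BP2 (SE, limma, adjusted p = 2.4e-07) and 1.33 ± 0.0912 with siNON (SE, limma, adjusted p = 1.8e-08).

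Further growth control and stress genes rose with either siRNA. BTG2, an antiproliferative factor, measured 30.6, 32.3 and 28.3 FPKM in siIRF2BP2 dex libraries, against 20.7, 19.9 and 22.7 FPKM in siIRF2BP2 vehicle libraries, and its log2 fold change was 0.53. With siNON it measured 30.7, 28.3 and 31.1 FPKM in siNON dex libraries, against 20.1, 19.5 and 19.1 FPKM in siNON vehicle libraries, a log2 fold change of 0.61. BTG2 did not overlap between dex and vehicle. SESN1, which restrains growth signalling under stress, measured 20.5, 20.8 and 19.1 FPKM in siIRF2BP2 dex libraries, against 13.7, 14.7 and 14.6 FPKM in siIRF2BP2 vehicle libraries (0.49 on the log2 scale), and 19.5, 18.8 and 19.5 FPKM in siNON dex libraries, against 11.9, 14.4 and 14.8 FPKM in siNON vehicle libraries (0.50). AEN measured 38.9, 43.6 and 36.5 FPKM in siIRF2BP2 dex libraries, against 27.7, 27.96 and 32.1 FPKM in siIRF2BP2 vehicle libraries (0.44), and 44.7, 43.6 and 46.01 FPKM in siNON dex libraries, against 33.2, 32.03 and 31.6 FPKM in siNON vehicle libraries (0.47). Neither SESN1 nor AEN overlapped between dex and vehicle. By limma the adjusted p with siIRF2BP2 was 7.7e-05 for BTG2, 0.00041 for SESN1 and 0.0012 for AEN.

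GADD45A and GDF15 fell after dex with either siRNA. GADD45A measured 15.8, 16.95 and 15.6 FPKM in siIRF2BP2 dex libraries, against 26.02, 21.9 and 22.8 FPKM in siIRF2BP2 vehicle libraries (log2 fold change -0.54). With siNON it measured 14.1, 12.8 and 13.1 FPKM in siNON dex libraries, against 18.1, 18.6 and 14.8 FPKM in siNON vehicle libraries (-0.36), and in neither case did the groups overlap. GDF15 measured 0.446, 0.550 and 0.527 FPKM in siIRF2BP2 dex libraries, against 1.59, 1.28 and 1.47 FPKM in siIRF2BP2 vehicle libraries, and 0.743, 0.397 and 0.518 FPKM in siNON dex libraries, against 1.30, 1.60 and 0.799 FPKM in siNON vehicle libraries. Its log2 fold changes were -1.35 with siIRF2BP2 and -1.02 with siNON, or -0.70 and -0.52 with a pseudocount of 1, and its libraries held 10 to 47 reads. BBC3, which encodes the apoptosis promoter PUMA, measured 4.38, 4.57 and 4.63 FPKM in siIRF2BP2 dex libraries, against 8.13, 6.63 and 6.26 FPKM in siIRF2BP2 vehicle libraries, without overlap. This change of -0.61 was called by limma (adjusted p = 0.0094) but not without siIRF2BP2 vehicle replicate 1 (adjusted p = 0.055, range over the alternatives 0.00079 to 0.055).

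With siIRF2BP2 4 members rose and 3 fell after dex, of 29 tested, where 10.5% of 15593 genes were called, 5.86% higher and 4.59% lower. With siNON 9 rose and 3 fell, where 20.7% were called, 10.9% higher and 9.82% lower. Called with both siRNAs were 4 higher (AEN, BTG2, CDKN1A and SESN1, against 5.15% of genes) and 2 lower (GADD45A and GDF15, against 3.67%). The median log2 fold change of the 29 members was -0.003 with siIRF2BP2 and 0.03 with siNON, and that of all genes tested 0.02 and 0.02.

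Called with siNON alone were 5 rises and 1 fall. POLH, a translesion polymerase, measured 5.80, 4.93 and 5.65 FPKM in siNON dex libraries, against 4.18, 4.22 and 3.47 FPKM in siNON vehicle libraries (0.46), and TNFRSF10B, a death receptor, 34.97, 34.2 and 35.7 FPKM in siNON dex libraries, against 27.8, 29.6 and 26.2 FPKM in siNON vehicle libraries (0.33). Neither overlapped, and both kept their call under the 13 alternatives. XPC, which recognises damaged DNA, rose by 0.35, PHLDA3, an inhibitor of AKT signalling, by 0.35 and TP53I3, a p53-induced oxidoreductase, by 0.26 on the log2 scale. XPC lost its call without siNON dex replicate 3, PHLDA3 without siNON dex replicate 1, and TP53I3 without siNON vehicle replicate 2 or siNON dex replicate 3. MDM2 measured 12.6, 12.6 and 11.9 FPKM in siNON dex libraries, against 12.98, 14.9 and 16.9 FPKM in siNON vehicle libraries and fell (-0.26, limma, adjusted p = 0.034), but lost its call in 8 of 13 alternatives, among them without siNON vehicle replicate 2 or 3 or any siNON dex library. By limma 0 members passed the test of the difference between the dex responses, where 0.0128% of genes did, with 0 called by voom too. An unadjusted p under 0.05 (limma) was found for 2 of 29 members, against 805 of the 15593 genes. POLH had the smallest of these, -0.45 ± 0.153 (SE, siIRF2BP2 minus siNON response, limma, adjusted p = 0.79). A p that misses the threshold does not show that the responses are alike.

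**Figure D2:**
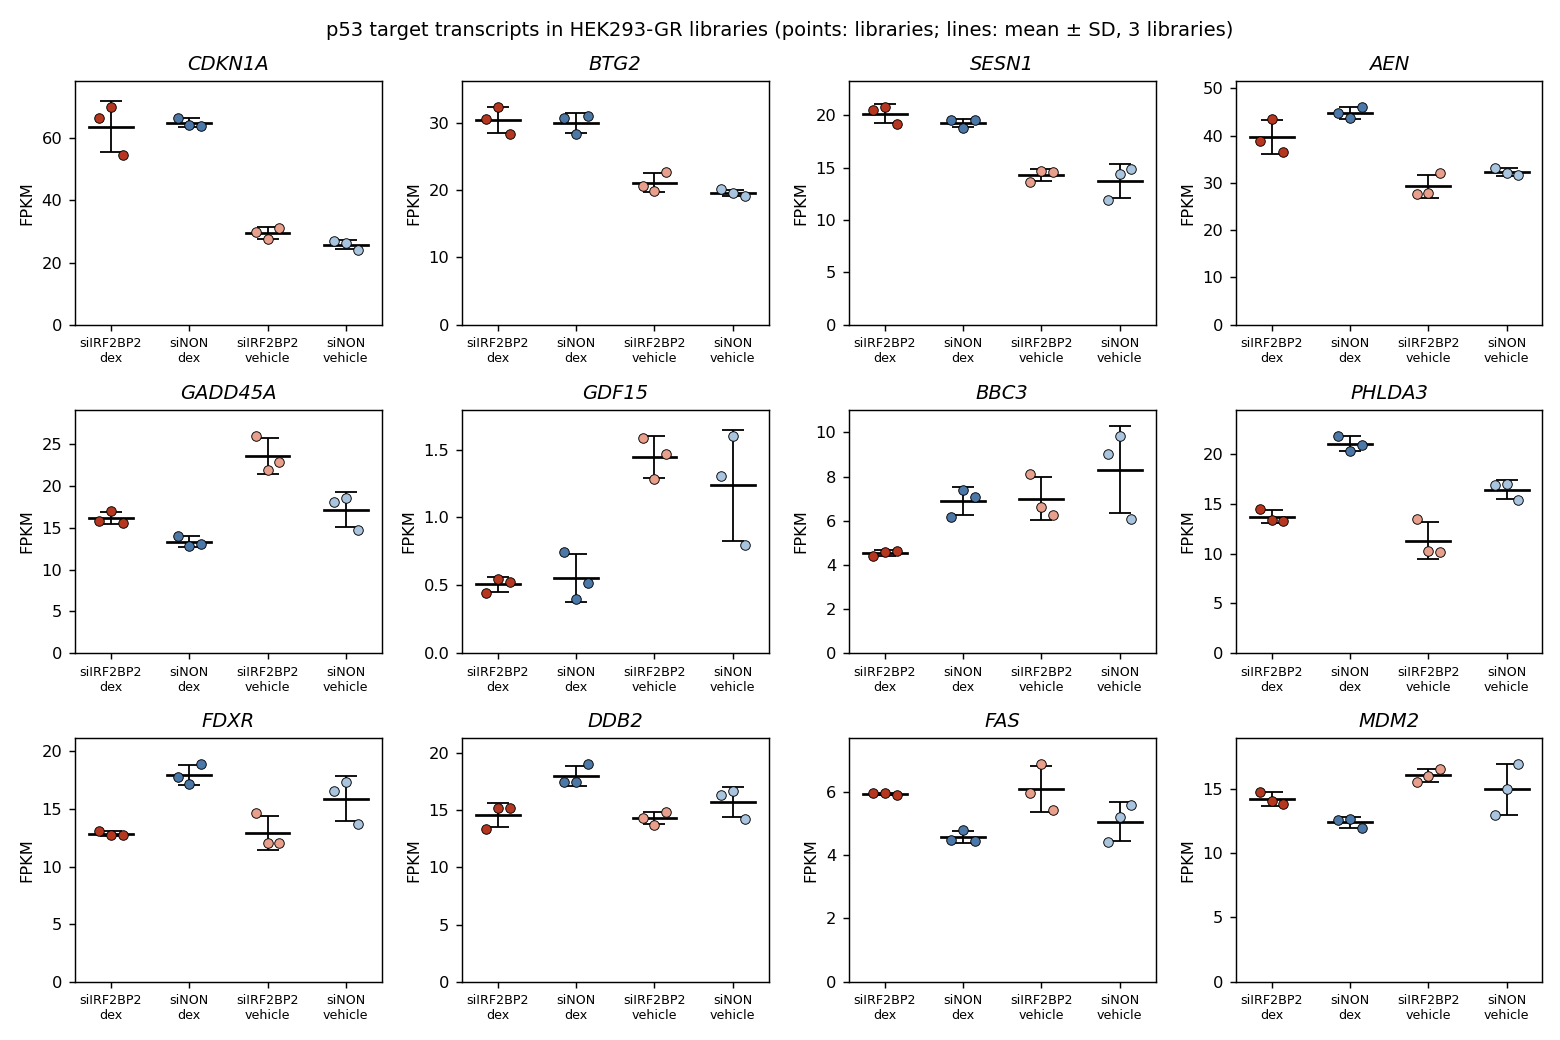
FPKM of 12 members in the HEK293-GR libraries (points, 3 per group) with mean and SD, siIRF2BP2 left of siNON under dex and then under vehicle. CDKN1A, BTG2, SESN1 and AEN lie higher and GADD45A and GDF15 lower after dex with either siRNA, and PHLDA3 lies lower with siIRF2BP2 under either treatment.

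Lowering IRF2BP2 in HEK293-GR cells raised GADD45A and MDM4 and lowered PHLDA3 and FDXR under either treatment, and under dex changed 7 members more. Under dex 5 of 29 tested members rose and 6 fell, where 39.7% of genes were called, 22.4% higher and 17.3% lower. Under vehicle 2 rose and 2 fell, where 15.5% were called, 7.48% lower. The members' shares lie near the background. Called under both treatments were 2 higher, against 6.21% of genes, and 2 lower, against 6.75%. The median log2 fold change was -0.03 under dex and 0.06 under vehicle, and over all genes -0.0001 and 0.03. The member counts changed when 1 library was left out. The shares of all genes called in those fits are not given here, so these counts describe the members alone. Under dex 5 members were called without siIRF2BP2 replicate 1, 7 without siNON replicate 1 and 6 without siNON replicate 2 or 3. Under vehicle 2 were called without siIRF2BP2 replicate 2 or 3 or siNON replicate 1, and 8 without siNON replicate 3.

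PHLDA3 measured 14.5, 13.4 and 13.3 FPKM in siIRF2BP2 dex libraries, against 21.9, 20.4 and 20.9 FPKM in siNON dex libraries, a log2 fold change of -0.61 (limma, adjusted p = 0.0003). Under vehicle it measured 13.5, 10.3 and 10.2 FPKM in siIRF2BP2 vehicle libraries, against 16.9, 17.04 and 15.4 FPKM in siNON vehicle libraries (-0.55, limma, adjusted p = 0.0016). Under neither treatment did the groups overlap. FDXR, a mitochondrial reductase, measured 13.1, 12.7 and 12.7 FPKM in siIRF2BP2 dex libraries, against 17.7, 17.1 and 18.9 FPKM in siNON dex libraries, without overlap (-0.48, limma, adjusted p = 0.0013). Under vehicle it measured 14.6, 12.1 and 12.04 FPKM in siIRF2BP2 vehicle libraries, against 16.6, 17.4 and 13.7 FPKM in siNON vehicle libraries (-0.30). There the groups overlapped, and the call was lost in 8 of 13 alternatives, among them without siIRF2BP2 replicate 2 or 3 or siNON replicate 1 or 2.

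GADD45A was higher with siIRF2BP2 under dex (0.28) and under vehicle (0.46), without overlap between the libraries given above. The vehicle call held in all 13 alternatives, and the dex call was lost without siIRF2BP2 replicate 1 or 2 or siNON replicate 2 or 3. MDM4, which inhibits p53, measured 6.20, 6.56 and 6.55 FPKM in siIRF2BP2 dex libraries, against 5.28, 4.79 and 5.63 FPKM in siNON dex libraries (0.30), and 6.56, 6.86 and 6.29 FPKM in siIRF2BP2 vehicle libraries, against 4.41, 6.04 and 5.29 FPKM in siNON vehicle libraries (0.33). Its groups did not overlap, but its call was lost in 7 of 13 alternatives under dex, among them without any siIRF2BP2 library or siNON replicate 1 or 2, and in 9 of 13 under vehicle, among them without any siIRF2BP2 library or siNON replicate 1.

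The other calls came under dex. BBC3 measured 4.38, 4.57 and 4.63 FPKM in siIRF2BP2 dex libraries, against 6.18, 7.41 and 7.08 FPKM in siNON dex libraries (-0.59, limma, adjusted p = 0.0053). DDB2, a damage sensor of nucleotide excision repair, measured 13.4, 15.2 and 15.2 FPKM in siIRF2BP2 dex libraries, against 17.5, 17.5 and 19.1 FPKM in siNON dex libraries (-0.30, limma, adjusted p = 0.007). Neither overlapped, and under dex BBC3, PHLDA3, DDB2 and FDXR kept their call under all 13 alternatives. FAS, a death receptor, measured 5.96, 5.96 and 5.90 FPKM in siIRF2BP2 dex libraries, against 4.46, 4.80 and 4.45 FPKM in siNON dex libraries, without overlap (0.37, limma, adjusted p = 0.012). Its call was lost under cyclic loess alone (adjusted p = 0.057, range over the alternatives 0.00031 to 0.057).

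PMAIP1, which encodes the apoptosis promoter NOXA, measured 36.9, 40.3 and 30.4 FPKM in siIRF2BP2 dex libraries, against 28.8, 29.6 and 27.01 FPKM in siNON dex libraries (0.33). RRM2B, a ribonucleotide reductase subunit for repair, measured 7.21, 6.49 and 6.31 FPKM in siIRF2BP2 dex libraries, against 5.36, 5.43 and 4.40 FPKM in siNON dex libraries (0.40). BAX measured 37.3, 40.1 and 34.7 FPKM in siIRF2BP2 dex libraries, against 41.8, 45.7 and 43.96 FPKM in siNON dex libraries (-0.23), and TNFRSF10B 29.3, 32.4 and 29.1 FPKM in siIRF2BP2 dex libraries, against 34.97, 34.2 and 35.7 FPKM in siNON dex libraries (-0.21). None of these 4 overlapped between siRNAs, but each call depended on single libraries. Here and above, non-overlap only describes called members, and its share over all genes was not counted. RRM2B lost its call in 12 of 13 alternatives, among them without any 1 of the 6 libraries. BAX and TNFRSF10B lost theirs without any 1 of these libraries but siIRF2BP2 replicate 2, and PMAIP1 without siIRF2BP2 replicate 1 or 2 or siNON replicate 3.

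In A549 cells most of the members called were lower with siIRF2BP2. Under vehicle 4 members were higher and 17 lower in the authors' deposited table at an FDR under 0.05, where 35.8% of 15946 genes were called, 16.9% higher and 18.9% lower. Under dex 4 were higher and 16 lower in the authors' deposited table, against 15.9% and 17.2% of genes. Under TNF the counts were 7 and 14 in the authors' deposited table, against 20.5% and 20.0%. After dex plus TNF they were 7 and 10 in the authors' deposited table, against 18.6% and 18.9%. Called in either direction were 33.1% of genes under dex, 40.6% under TNF and 37.5% after both agents. The median log2 fold change of the 30 members under vehicle, dex, TNF and the combination was -0.30, -0.33, -0.19 and -0.05 in the authors' deposited table, and that of all genes 0.01, 0.005, 0.02 and 0.01. By role, under vehicle, dex, TNF and both, 6, 5, 4 and 3 of 9 apoptosis genes were lower and 2, 1, 2 and 2 higher in the authors' deposited table. In that order 4, 2, 2 and 2 of 5 arrest genes were lower and 0, 1, 2 and 2 higher in the authors' deposited table. Of 3 death receptors 3, 3, 2 and 1 were lower and 0 higher, and of 4 repair genes 0, 1, 1 and 1 were lower and 1, 1, 1 and 1 higher in the authors' deposited table. Lower under each of the 4 treatments were 8 members in the authors' deposited table, against 10.1% of genes, and higher 2, against 7.53%.

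GDF15 had the lowest log2 fold change of the 30 members in each knockdown comparison. Its reads, scaled to the tags of each pooled column (RPM), were 82.8, 15.9, 76.9 and 20.7 RPM with siIRF2BP2, against 269.6, 111, 239.5 and 67.9 RPM with siNON, after vehicle, dex, TNF and both agents. In that order the log2 fold changes were -1.82, -2.92, -1.74 and -1.86 in the authors' deposited table. ZMAT3, an RNA-binding p53 target, held 10.3, 10.4, 14.7 and 14.97 RPM with siIRF2BP2, against 20.98, 21.9, 30.5 and 26.99 RPM with siNON, in the same order. Its log2 fold changes were -1.17, -1.26, -1.15 and -0.92 in the authors' deposited table. FDXR held 31.1, 26.9, 26.1 and 21.6 RPM with siIRF2BP2, against 45.8, 43.9, 40.6 and 41.9 RPM with siNON, with log2 fold changes of -0.64, -0.77, -0.71 and -1.03 in the authors' deposited table. Every siIRF2BP2 column of these 3 genes lay below the siNON column of its treatment. TNFRSF10A had -0.96, -0.69, -0.61 and -0.41, GADD45A -0.54, -1.16, -0.71 and -0.78 and AEN -0.76, -0.86, -0.38 and -0.38 in the authors' deposited table. SPATA18, which acts in mitochondrial quality control, had -0.44, -0.50, -0.61 and -0.56, and TRIAP1, an apoptosis inhibitor, -0.30, -0.45, -0.32 and -0.60 in the authors' deposited table. The log2 ratios of the pooled FPKM columns, with 0.1 added to each value here and below, were smaller. They were -0.17, -0.19, -0.30 and -0.29 for SPATA18, -0.16, -0.29, -0.23 and -0.52 for TRIAP1 and -0.74, -0.79, -0.84 and -0.67 for ZMAT3. The added 0.1 shrinks ratios of low values. On the scale divided by genomic span SPATA18 stood at 0.121 to 0.194 FPKM and ZMAT3 at 0.189 to 0.559 FPKM. TRIAP1, at 10.1 to 14.8 FPKM, is little affected by it. Of 79 called member values in the A549 knockdown comparisons, 20 differed by over 1.5 times between the deposited log2 fold change and this ratio. In sign 0 differed.

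TP53INP1, which links p53 to autophagy and apoptosis, was higher with siIRF2BP2. It held 23.9, 32.8, 25.1 and 29.7 RPM with siIRF2BP2, against 11.6, 15.1, 12.1 and 14.6 RPM with siNON, after vehicle, dex, TNF and both agents, and its log2 fold changes were 0.90, 0.93, 0.96 and 0.96 in the authors' deposited table. POLH had 0.43, 0.43, 0.71 and 0.57 in the authors' deposited table. CDKN1A held 129.8, 237, 212 and 202 RPM with siIRF2BP2, against 145, 179, 175 and 150.4 RPM with siNON, and was lower under vehicle (-0.24) but higher under dex (0.36), TNF (0.20) and both (0.38) in the authors' deposited table. Its vehicle and TNF calls were lost at an FDR under 0.01. BBC3 was called lower under vehicle (-0.77) and dex (-0.99), and had -0.29 under TNF and -0.02 after both, not called, in the authors' deposited table. PMAIP1 had -0.72, -0.45, -0.52 and -0.03, with the last not called, and PLK3 was called at -0.75 under vehicle and -0.44 under TNF in the authors' deposited table.

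Of the pathway's regulators, PPM1D, a phosphatase that dampens p53, was called lower under vehicle (-0.36) and dex (-0.42) in the authors' deposited table, with pooled ratios of -0.17 and -0.21. CCNG1 was higher under vehicle (0.37), TNF (0.29) and both (0.45) in the authors' deposited table. MDM2 was lower under dex (-0.31, pooled ratio -0.09) and TNF (-0.28), and MDM4 under TNF (-0.35) in the authors' deposited table. Among the arrest genes PLK2 had -0.37, -0.58 and -0.38 under vehicle, dex and both, and BTG2 0.53 and 0.48 under TNF and both in the authors' deposited table. TNFRSF10B had -0.42, -0.46 and -0.34 under vehicle, dex and TNF, and FAS -0.36 and -0.36 under vehicle and dex in the authors' deposited table. The FAS calls were lost at an FDR under 0.01, and its pooled ratios were -0.15 and -0.11. TP53I3 was higher under vehicle (0.39), TNF (0.52) and both (0.25), and PHLDA3 lower under vehicle (-0.31) in the authors' deposited table. SESN1 was higher under dex (0.45), TNF (0.45) and both (0.54) in the authors' deposited table. RRM2B was lower under dex (-0.43, pooled ratio -0.19) and TNF (-0.40), and DDB2 after both (-0.38) in the authors' deposited table. BAX, XPC and RPS27L were called in none of the 4 knockdown comparisons in the authors' deposited table. At an FDR under 0.01, 15 of the 79 knockdown calls were lost, among them MDM2 under dex and TNF, PHLDA3, and CCNG1 under TNF.

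FAS overlaps ACTA2 on the other strand, and TNFRSF10B overlaps RHOBTB2, POLH overlaps GTPBP2 and PLK3 overlaps TCTEX1D4 in the same way. The counting is not stated to use strand, so reads from the shared stretches cannot be told apart.

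**Figure D3:**
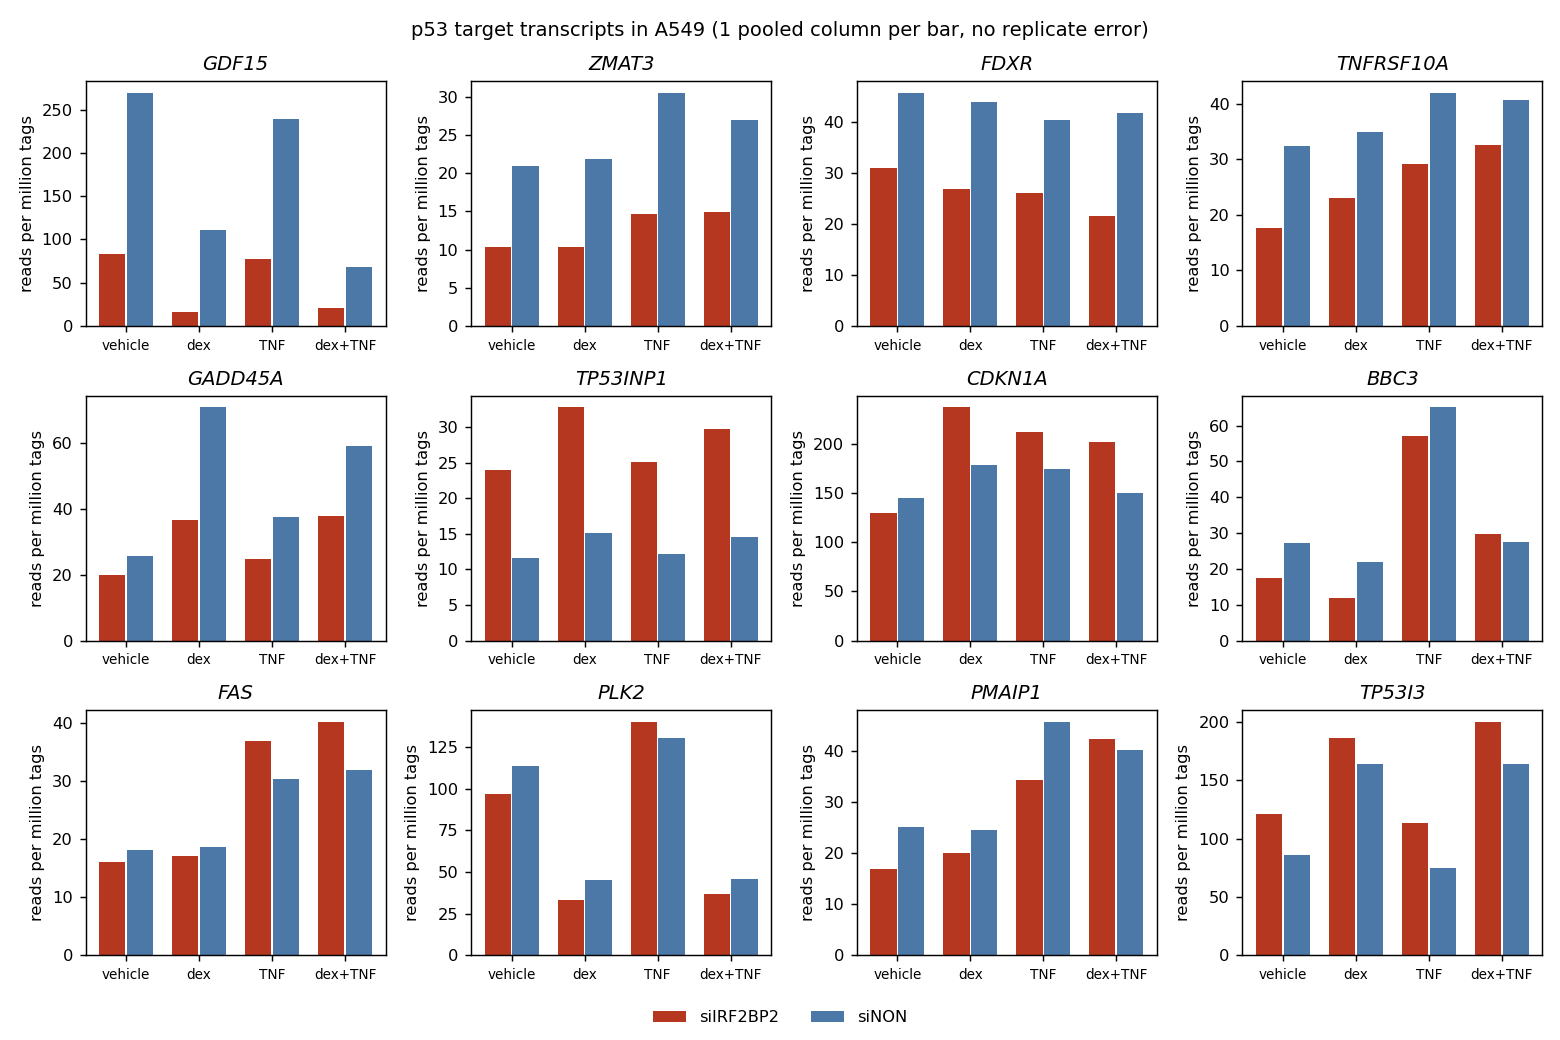
Reads of 12 members scaled to the tags of each A549 pooled column, siIRF2BP2 left of siNON for each treatment, with 1 bar per pooled column and no replicate error. GDF15, ZMAT3, FDXR and TNFRSF10A lie lower and TP53INP1 higher with siIRF2BP2 under each treatment, and FAS and BBC3 lie higher after TNF than after vehicle.

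TNF raised members of several roles in A549 cells, among them all 3 death receptors, and BBC3 rose most. With siIRF2BP2 14 members were higher and 0 lower in the authors' deposited table, where 39.0% of genes were called, 19.5% higher and 19.6% lower. With siNON it was 11 and 0 in the authors' deposited table, where 20.4% were called, 10.5% higher and 9.83% lower. The same 11 genes were higher with both siRNAs, against 9.64% of genes, and 0 members lower, against 7.66%. BBC3 held 57.2 RPM after TNF and 17.4 RPM under vehicle with siIRF2BP2, and 65.1 and 27.1 RPM with siNON. Its log2 fold change was 1.85 with siIRF2BP2 and 1.37 with siNON in the authors' deposited table. With siIRF2BP2 and then siNON, TNFRSF10B rose by 1.25 and 1.18, FAS by 1.32 and 0.79 and TNFRSF10A by 0.85 and 0.50 in the authors' deposited table. PMAIP1 rose by 1.13 and 0.94 and BTG2 by 1.03 and 0.61 in the authors' deposited table. MDM2 rose by 0.46 and 0.53 in the authors' deposited table. None of the 4 repair genes was called with either siRNA in the authors' deposited table. The difference between siRNAs was not tested.

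After dex alone, 7 members were higher and 8 lower with siIRF2BP2 in the authors' deposited table, where 25.1% of genes were called, 13.9% higher and 11.2% lower. With siNON it was 2 and 2 in the authors' deposited table, where 11.0% were called, 6.46% higher and 4.58% lower. Called with both were GADD45A and TP53I3 as higher (against 5.70% of genes) and GDF15 and PLK2 as lower (against 3.57%). GADD45A rose by 0.93 with siIRF2BP2 and 1.54 with siNON in the authors' deposited table. GDF15 had -2.34 with siIRF2BP2 and -1.28 with siNON, and PLK2, a stress-induced kinase, -1.48 and -1.28 in the authors' deposited table. CDKN1A had 0.93 with siIRF2BP2 and 0.33, not called, with siNON in the authors' deposited table. Small falls with siIRF2BP2 were called for PPM1D (-0.28), RRM2B (-0.24), RPS27L, a ribosomal protein paralogue, (-0.17) and BAX (-0.17) in the authors' deposited table.

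After dex plus TNF, 16 members were higher and 6 lower with siIRF2BP2 in the authors' deposited table, where 43.2% of genes were called, 22.4% higher and 20.8% lower. With siNON it was 12 and 5 in the authors' deposited table, where 22.1% were called, 12.1% higher and 10.0% lower. With both siRNAs 12 were higher, against 11.2% of genes, and 3 lower, against 8.07%. FAS had 1.46 with siIRF2BP2 and 0.85 with siNON, PMAIP1 1.45 and 0.75, and PLK3 1.21 and 0.37 in the authors' deposited table. GDF15 had -1.87 and -1.84 and PLK2 -1.23 and -1.23, so these 2 were lower whether or not TNF was added to dex in the authors' deposited table. With one siRNA the responses to dex, TNF and both share their vehicle column.

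**Figure D4:**
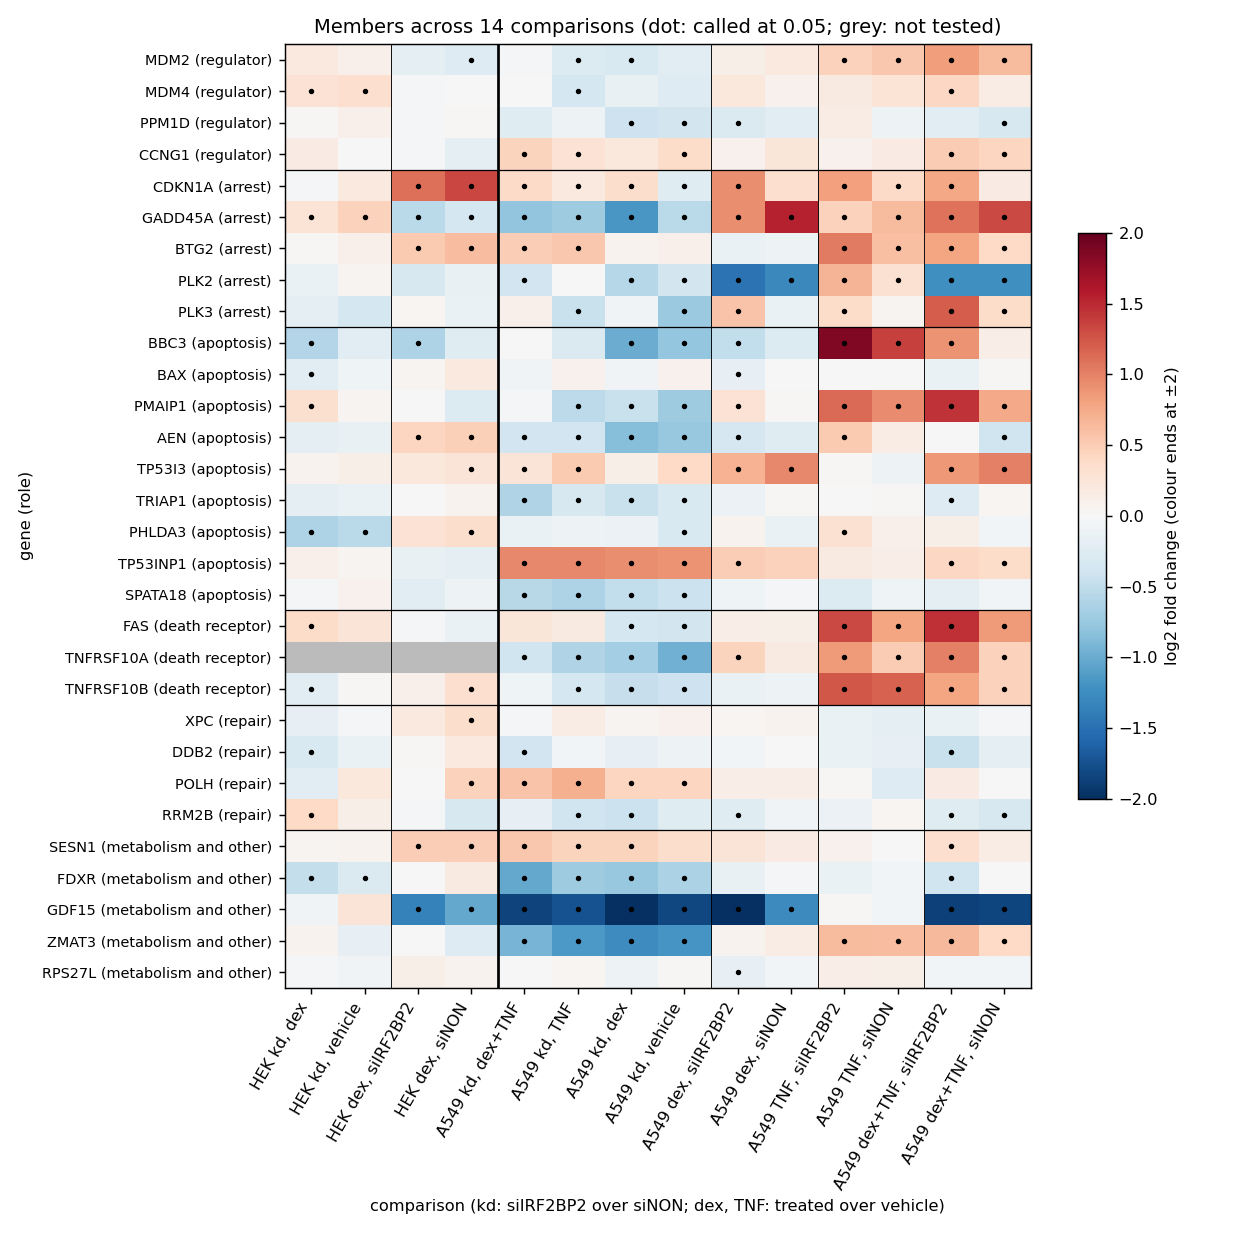
Log2 fold changes of the 30 members (down the page, by role) in 4 HEK293-GR comparisons from limma and 10 A549 comparisons from the authors' deposited table, with dots for calls at 0.05 and grey where not tested. In the A549 knockdown columns GDF15 and ZMAT3 are blue and TP53INP1 red, and the TNF columns are red for the death receptors, BBC3 and PMAIP1.

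Members called in both lines included some that went in opposite directions. For the knockdown under dex 3 of 29 were called alike (BBC3, TNFRSF10B and FDXR), against 11.6% of 14353 genes tested in both lines, and 4 oppositely (GADD45A, PMAIP1, FAS and RRM2B), against 3.87%. Of these, the A549 call of FAS was lost at an FDR under 0.01. Under vehicle 2 were called alike (PHLDA3 and FDXR), against 7.28%, and 1 oppositely (GADD45A), against 0.968%, and the A549 call of PHLDA3 was lost at an FDR under 0.01. After dex with siIRF2BP2 3 were called alike (CDKN1A, BBC3 and GDF15), against 3.81%, and 2 oppositely (GADD45A and AEN), against 1.18%. With siNON 2 were called alike (TP53I3 and GDF15), against 3.17%, and 1 oppositely (GADD45A), against 1.18%. Across the 29 members the log2 fold changes of the lines had a Pearson r of 0.0704 for the knockdown under dex (Spearman rho 0.0685) and 0.111 under vehicle (rho 0.233). For dex r was 0.603 with siIRF2BP2 (rho 0.213) and 0.223 with siNON (rho -0.00985). These describe genes, which are not independent replicates, and values from 2 different fits. Within each line the 4 comparisons share groups, so they are not independent either. The difference between the lines was not tested, since the A549 columns are pooled.

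**Figure D5:**
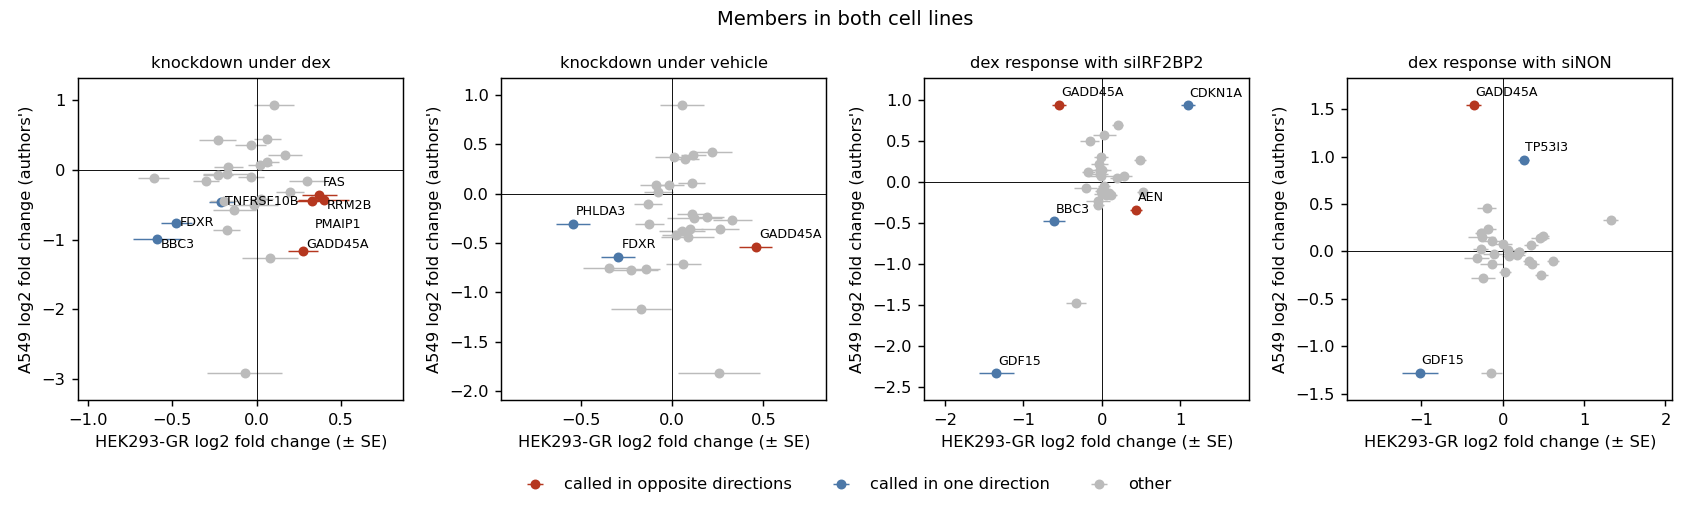
Log2 fold change of each of 29 members in HEK293-GR (x axis, ± SE, limma) and A549 (y axis, authors' deposited table) for 4 comparisons, red where called in opposite directions, blue where called in one direction, grey otherwise. GADD45A is red in all 4 panels, which share groups within each line, and GDF15 lies lowest on the A549 axis in the knockdown panels.

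Other genes of the pathway were counted in the same way. Of 40 further known p53 targets in A549, 4, 7, 12 and 15 were higher and 11, 13, 12 and 11 lower with siIRF2BP2 under vehicle, dex, TNF and both in the authors' deposited table. The shares of all genes in that order were 16.9%, 15.9%, 20.5% and 18.6% higher and 18.9%, 17.2%, 20.0% and 18.9% lower. TGFA, a growth factor, had -2.60 under dex and -2.66 under vehicle, and PERP, a membrane protein linked to apoptosis, -1.09 and -0.92 in the authors' deposited table. In HEK293-GR cells limma called 6 of 38 tested higher and 12 lower under dex, against 22.4% and 17.3% of genes, with TGFA at -1.27. Under vehicle it called 4 higher and 5 lower, against 1247 and 1167 of the 15593 genes. A further list held 20 cell cycle genes known to be repressed through p53 and p21. In the A549 knockdown comparisons, in the order above and against the A549 shares above, 4, 2, 7 and 4 were higher in the authors' deposited table. Lower were 1, 3, 1 and 6. In HEK293-GR limma called 1 higher and 1 lower for the knockdown under dex, against 22.4% and 17.3% of genes. Under vehicle it called 0 and 0, against 1247 and 1167 of the 15593 genes. After dex there it called 0 and 0 with siIRF2BP2, against 5.86% and 4.59% of genes. With siNON it called 1 and 1, against 10.9% and 9.82%. After TNF in A549, 11 were higher and 1 lower with siIRF2BP2, and 2 and 0 with siNON, in the authors' deposited table. The shares of all genes were 19.5% and 19.6% with siIRF2BP2 and 10.5% and 9.83% with siNON. After dex in A549, 0 were higher and 10 lower with siIRF2BP2, and 0 and 0 with siNON, in the authors' deposited table. The shares of all genes were 13.9% and 11.2% with siIRF2BP2 and 6.46% and 4.58% with siNON. After dex plus TNF 0 were higher and 8 lower with siIRF2BP2, and 0 and 0 with siNON, in the authors' deposited table. There the shares were 22.4% and 20.8% with siIRF2BP2 and 12.1% and 10.0% with siNON. The difference between siRNAs was not tested. Of 16 paralogues and partners of members, 5, 5, 7 and 6 were higher in the A549 knockdown comparisons in the authors' deposited table. Lower were 4, 4, 4 and 4, in the same order of treatments and against the shares above. For the knockdown in HEK293-GR limma called 1 higher and 1 lower under vehicle, and 1 and 2 under dex, against the HEK293-GR knockdown shares above. In A549 under vehicle CCNG2 (of CCNG1) had -1.05, RRM2 (of RRM2B) 0.83, SESN3 (of SESN1) 0.95 and GADD45B (of GADD45A) 0.67 in the authors' deposited table.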

How the data were processed

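The submitters' processing notes name, for RNA, edgeR, TopHat2, Bowtie2, HOMER, Trimmomatic 0.33 and FastQC, and for ChIP FastQC, HOMER 4.10.3, Bowtie 0.12.9 and bedtools. They give hg19 as the build, without roles or order. Per the file headers the RNA values are FPKM, scaled by the authors to tags and to a deposited length column. That length equals the genomic span for 98.6% of the A549 transcripts, so levels were not compared between lines. The deposited log2 fold changes and FDR (an adjusted p-value) are the authors' own. The deposited peak score is the same for every peak, so positions alone were used.

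Whole reads were recovered from FPKM times length for at least 99.99% of HEK293-GR values (tolerance 0.01 read beyond rounding). The 15593 HEK293-GR genes with 10 or more reads in 3 or more libraries entered limma 3.58.1 (trend, R 4.3.3) on log2(FPKM + 0.1). All 12 libraries shared one fit (8 residual degrees of freedom), and p-values were adjusted by Benjamini-Hochberg with a threshold of 0.05. That scale understates changes of low genes. The method was also run on simulated data with the same dispersion for every gene, unlike real data. That outcome is not given here and is not used as support for the calls. Of 16 HEK293-GR RNA samples 4 were not analysed here. In A549 each symbol was taken from its transcript with the highest mean FPKM times length, with no test of its own.

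The members and lists were chosen with earlier results of these data known. One result on a further pathway gene is not reported here. All 30 members are described, each called one with values in at least some comparison, with IRF2BP2 as the targeted gene. From further lists, counts or a few genes are given for some comparisons. A list of 20 genes, p53 and its upstream regulators, was also fixed and is not described here. Alternatives for HEK293-GR were a pseudocount of 1, no filter, median centring, voom, fits of the compared groups, a replicate block and each library left out. For A549 they were the median over transcripts, an FDR of 0.01 and pooled FPKM ratios with 0.1 added to each value. Other peak windows were also used. Cyclic loess and the authors' FDR for HEK293-GR were added after seeing the data.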

Additional observations from a re-analysis of the deposited data

Results flagged for a closer look

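Several members were called in opposite directions in HEK293-GR and A549 cells under the same contrast. These differences were not tested, since the A549 columns are pooled, and all A549 values here are from the authors' deposited table. GADD45A had a log2 fold change of 0.46 in HEK293-GR and -0.54 in A549 for siIRF2BP2 over siNON under vehicle, and 0.28 and -1.16 under dex. After dex it had -0.54 in HEK293-GR and 0.93 in A549 with siIRF2BP2, and -0.36 and 1.54 with siNON. Within each line these contrasts share groups, so they are not independent of each other. For the knockdown under dex the HEK293-GR and A549 values were 0.33 and -0.45 for PMAIP1, 0.37 and -0.36 for FAS, and 0.40 and -0.43 for RRM2B. The A549 call of FAS was lost at an FDR under 0.01 (pooled FPKM ratio -0.11), and the HEK293-GR call of RRM2B in 12 of 13 alternatives. AEN after dex with siIRF2BP2 had 0.44 in HEK293-GR and -0.34 in A549. Within A549, CDKN1A was called lower with siIRF2BP2 under vehicle (-0.24) but higher under dex (0.36), TNF (0.20) and dex plus TNF (0.38), and this difference between treatments was not tested.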

How the results depend on the processing

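No called member changed direction under the alternatives run. Of 2030 HEK293-GR values of single members under the alternatives, called or not, 71 lost their call and 30 gained one. Only called members could lose a call. These were 4 and 11 for the knockdown under vehicle and dex, and 7 and 12 for dex with siIRF2BP2 and siNON, with 13 alternatives each. Of 162 called A549 values 27 lost their call, at an FDR under 0.01. Pooled FPKM ratios, with 0.1 added to each value, have no test, so they could not lose a call. They differed by over 1.5 times from the deposited log2 fold change in 29 of 162 called A549 values, and in 0 by sign. The added 0.1 shrinks ratios of low values. These ratios are also centred elsewhere. In the A549 knockdown comparisons their median over all genes was 0.04 to 0.08, against 0.005 to 0.02 for the deposited values. The HEK293-GR knockdown under vehicle called 4 members, and 2 with no filter, in a fit of its own groups, with the replicate block and by the authors' deposited FDR. Leaving out 1 library gave 2 to 8 members there, 5 to 9 (of 11) for the knockdown under dex, 7 to 7 for dex with siIRF2BP2, 9 to 13 (of 12) for dex with siNON and 0 to 0 for the difference. The shares of all genes called in these fits are not given here. A group left with 2 libraries shares the spread of the others. The labels do not say whether replicate numbers pair the libraries. Deviations of same-numbered libraries from their group means correlated at -0.377 to 0.261. These values cannot decide it, since deviations of dense genes also differed between the deepest and the shallowest library. The replicate block gave 8, 8, 11 and 0 members in the comparisons other than the knockdown under vehicle, in the same order. Peaks within 100 kb covered 7 members in the dex list, against 3 within 10 kb. Apart from the arithmetic effect of the added 0.1, the cause of these changes was not tested. Reads of 10 to 47 per library limit GDF15, and the pooling of A549 columns leaves no replicate error.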
